A study of Mus musculus with 4 samples.

Results

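The Wnt ligands, receptors and secreted antagonists were taken from the gene symbols of the deposited matrices. Every Wnt and Fzd gene, Sfrp1 to Sfrp5, Dkk1 to Dkk4, Lrp5, Lrp6, Ror1, Ror2, Ryk, Frzb, Wif1, Lgr4, Lgr5, Rspo1 to Rspo4 and Axin2 was looked up, and 51 of 32285 genes carried such a symbol. A gene was kept as a member when it had at least 20 unique molecular identifiers (UMIs, each standing for 1 captured RNA molecule) over the 4 libraries. That left 38 members: 12 of 19 Wnt ligands, 8 of 10 Frizzled receptors, 5 of 6 Wnt-binding antagonists, 2 of 4 Dickkopf proteins, 3 of 4 R-spondins, both R-spondin receptors, Lrp5 and Lrp6, the alternative receptors Ror1, Ror2 and Ryk, and Axin2. The other 13 had 0 to 15 UMIs, with Wnt8a and Wnt10a at 0. At the border, Wnt8b was kept with 23 UMIs, while Wnt7b and Sfrp5 were left out with 15 each. The member with the most UMIs was Ror1, with 101285.

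The libraries are single-nucleus RNA-seq libraries (10x Genomics 3′ v3 chemistry) from hearts of C57BL/6 mice aged 6 months. The study addressed a mutation of Rbm20, a splicing factor of heart muscle linked to dilated cardiomyopathy, and its correction by gene editing. There was 1 library for each of 4 genotypes: WT, heterozygous mutant (Rbm20_het), homozygous mutant (Rbm20_homo) and Rbm20_homo_corrected, in which gene editing corrected the homozygous mutation and which is written below as the editing-corrected library. Each library pooled the nuclei of 3 hearts, so the spread between animals cannot be seen, and no test between genotypes was possible. The labels describe total cardiac nuclei, although the protocol text also mentions CD45+ immune cells. The mutated residue and the way the editor was delivered are not given in the sources used here. All differences below are between single libraries, and every interval is a 95% interval that covers counting error only.

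Wnt ligands are secreted, lipid-modified glycoproteins that bind Frizzled receptors on the cell surface. With the co-receptors Lrp5 or Lrp6 they stabilise β-catenin, which acts with TCF/LEF factors on target genes such as Axin2, itself a feedback inhibitor. Ror1, Ror2 and Ryk bind Wnts and are known for signalling that does not pass through β-catenin, such as planar cell polarity. The Sfrp proteins, Frzb and Wif1 bind Wnts outside the cell, most Dickkopf proteins block Lrp5 and Lrp6, and R-spondins act through Lgr4 and Lgr5 to keep Frizzled receptors at the surface. In the adult heart the pathway is known for low activity at rest and for its engagement in fibroblasts after injury.

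Promoter windows are shown for 3 of the members treated below: Ror1, the receptor with the most UMIs, and the ligands Wnt11 and Wnt5b. The sequences are the 250 bases before the transcription start in the RefSeq table for GRCm38.p6, in which 25 of the 38 members were found, and none of the shown bases lies in an annotated exon. Capitals mark the only matches to the 4 motifs searched on both strands, CTTTGAA and CTTTGAT for TCF/LEF, TGANTCA for AP-1 and CATTCC for TEAD. The Ror1 window is chr4:100095541-100095790 on the + strand and holds no match. The Wnt11 window is chr7:98834862-98835111 on the + strand, with ATCAAAG in capitals, which reads CTTTGAT on the other strand. The Wnt5b window is chr6:119544348-119544597, printed from the − strand, with TGAGTCA in capitals.
Ror1: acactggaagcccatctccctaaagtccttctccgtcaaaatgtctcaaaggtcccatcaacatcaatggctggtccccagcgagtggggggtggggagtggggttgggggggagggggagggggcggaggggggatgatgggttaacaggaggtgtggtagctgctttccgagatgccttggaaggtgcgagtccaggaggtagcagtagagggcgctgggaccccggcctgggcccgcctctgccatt
Wnt11: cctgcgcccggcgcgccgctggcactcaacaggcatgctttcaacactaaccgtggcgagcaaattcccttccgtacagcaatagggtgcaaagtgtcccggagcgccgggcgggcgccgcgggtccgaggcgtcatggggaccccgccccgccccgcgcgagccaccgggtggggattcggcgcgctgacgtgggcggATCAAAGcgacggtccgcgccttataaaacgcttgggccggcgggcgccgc
Wnt5b: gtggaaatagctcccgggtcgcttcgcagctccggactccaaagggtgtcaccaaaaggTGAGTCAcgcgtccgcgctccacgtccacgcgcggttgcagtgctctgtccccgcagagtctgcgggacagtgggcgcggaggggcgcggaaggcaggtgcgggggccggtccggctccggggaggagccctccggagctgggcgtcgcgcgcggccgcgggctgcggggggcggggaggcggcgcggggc
The RefSeq table lists 2 start sites for Wnt11 and 3 for Wnt5b, so these windows are not the only candidate promoters of those genes. Over all 32851 windows of this length, 3.21% held CTTTGAT, 4.46% CTTTGAA, 6.75% TGANTCA and 12.6% CATTCC. Among the 25 members found, the counts were 1, 0, 2 and 1 in the same order. In base composition, 23 of the 25 member windows had a GC content above the 52.4% median of all windows, with 62.4% for Ror1, 70.8% for Wnt11 and 75.2% for Wnt5b. A match of letters is a description and does not show that a factor binds.

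The libraries held 9494 to 15153 barcodes and 37180791 to 52370368 UMIs, and 41139 nuclei were kept, 8681 of WT, 8871 of Rbm20_het, 10443 of Rbm20_homo and 13144 of the editing-corrected library. Between 26 and 56 barcodes occurred in both libraries of a pair, at most 0.4845% of the smaller one. Nuclei were clustered without the member genes, and 13 classes were named from marker genes. Each is written as "-like" at first mention and by its plain name after that. The main ones were ventricular cardiomyocyte-like (2944, 2406, 2946 and 3079 nuclei, always in the order WT, Rbm20_het, Rbm20_homo, Rbm20_homo_corrected), fibroblast-like (1916, 2306, 3061 and 3642), endothelial-like (1281, 1411, 1289 and 2312) and pericyte-like nuclei (563, 739, 493 and 1149). The smaller ones were macrophage-, endocardial-, lymphatic-, smooth muscle-, mesothelial-, Schwann-, T cell- and B cell-like nuclei and cycling nuclei. Median UMIs per nucleus were 4847, 5693, 5896 and 4511 in cardiomyocytes, 2429, 2686, 2812 and 2262 in fibroblasts, 1545, 1657, 1619 and 1474 in endothelial nuclei and 1949, 2102, 1950 and 1837 in pericytes, so shares of nuclei with a UMI in different classes rest on different depths. Rbm20 itself stood at 4553, 4571, 3811 and 4702 CPM in cardiomyocytes, and a point change in the gene cannot be seen in these counts. CPM are counts scaled to 1e6 non-mitochondrial UMIs of the class in that library.

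The Rbm20_homo library stood apart in which clusters its nuclei fell. Of the cardiomyocytes, cluster 0 held 2904, 2264, 62 and 2775 nuclei and cluster 3 held 40, 142, 2884 and 304, in the same order. Cluster 3 had 4 of 12 cardiomyocyte markers enriched, against 11 of 12 in cluster 0, and Nppb among its leading genes. Of the fibroblasts, cluster 1 (5 of 9 markers of Gfra1 interstitial fibroblasts) held 1539, 1885, 302 and 3169 nuclei. Cluster 4 (8 of 10 markers of Postn activated fibroblasts) held 54, 167, 2717 and 175, and cluster 9 (7 of 9 markers of Pi16 adventitial fibroblasts) held 323, 254, 42 and 298. A cluster mostly of 1 library may be that library rather than a cell state. The nuclear RNA Malat1 took 14.43, 15.36, 24.14 and 15.41% of cardiomyocyte UMIs.

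Of the 38 members, 18 had at least 50 UMIs in the class of their highest pooled level and are described in that class. Those 18 led in 9 of the 13 classes. For 13 of them the leading class was above the next one in all 4 libraries, while for 7 of them (Rspo1, Wnt5b, Lrp6, Rspo3, Lgr5, Wnt9a and Fzd6) the ranges over the libraries did not overlap. For the other 11 the ranges overlapped, although Frzb, Fzd4, Dkk3, Ryk, Ror2 and Lrp5 were higher in their leading class in every library. Lgr4, Ror1, Sfrp1, Wif1 and Sfrp4 were not, so the order of their top classes is not settled by these libraries. For Wif1 and Sfrp4 the next class held only 2 and 3 UMIs.

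Among the ligands, Wnt5b, which is known for signalling without β-catenin, was highest in smooth muscle. There it had 556.1 CPM for WT, 643.8 for Rbm20_het, 299.6 for Rbm20_homo and 394.6 for the editing-corrected library, against 100.4 to 175.2 CPM in cardiomyocytes, the next class. Over the 4 libraries 48.37% of smooth muscle nuclei and 40.92% of cardiomyocyte nuclei had a Wnt5b UMI, against 2.129% of endothelial nuclei. Wnt9a, a ligand known from valve and joint development, was highest in mesothelial nuclei, the outer lining of the heart, at 45.71, 64.15, 92.86 and 62.18 CPM. The next class, lymphatic nuclei, had 16.78 to 36.66 CPM.

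The described R-spondins were highest outside muscle and fibroblasts. Rspo1 was highest in mesothelial nuclei: its levels there were 356.5, 485.7, 400.3 and 186.6 CPM (39, 53, 125 and 27 UMIs in 33, 25, 83 and 36 nuclei), against 4.697 to 10.4 CPM in smooth muscle. A Rspo1 UMI was found in 63.84% of mesothelial nuclei, 1.837% of smooth muscle nuclei and 0.07033% of cardiomyocyte nuclei. The editing-corrected library was the lowest for Rspo1, 2.15-fold below Rbm20_homo (interval 1.41 to 3.38) and 1.91-fold below WT (1.14 to 3.25). Rspo3, known as a vascular R-spondin, was highest in lymphatic nuclei, with 87.12, 52.7, 46.66 and 62.32 CPM against 0 to 7.566 CPM in cycling nuclei. Rspo2 was too sparse to describe: its 22 mesothelial UMIs in Rbm20_het came from 1 nucleus.

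Of the R-spondin receptors, Lgr5 was highest in pericytes and Lgr4 was broad. Lgr5 had 9.613, 6.586, 9.044 and 12.21 CPM in pericytes, and 0 to 4.582 CPM in lymphatic nuclei. Even in pericytes only 1.732% of nuclei had a Lgr5 UMI. Lgr4 was highest in Schwann nuclei, with 98.65, 113.3, 83.33 and 202 CPM from 11 to 28 UMIs, but cardiomyocytes reached 92.33 to 112.2 CPM and were above them in Rbm20_homo.

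The described Frizzled receptors were highest in vessel classes. Fzd4, known as a receptor of blood vessel growth, was highest in endothelial nuclei, at 83.19, 116.6, 146.9 and 82.36 CPM, with lymphatic nuclei next at 55.13 to 86.46. A Fzd4 UMI was found in 15.26% of endothelial and 17.29% of endocardial nuclei, against 1.575% of macrophage nuclei. Fzd6 was highest in lymphatic nuclei, at 193.9, 139.8, 199 and 222.9 CPM, above the 115.2 to 130.2 CPM of endothelial nuclei in every library. The Fzd6 gene overlaps an annotated gene, as do Ror1, Ryk, Fzd3, Fzd5, Wnt2b, Wnt5a, Wnt5b, Wnt6, Wnt11, Axin2, Rspo1, Rspo3, Sfrp2 and Lgr5. For Ror1, Ryk, Fzd3, Wnt2b and Rspo3 an overlapping gene lies on the same strand. How the counting treated strand and overlaps is not given in the sources used here.

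The co-receptors led in different classes. Lrp6 was highest in macrophages, with 349.4, 411, 334.9 and 366.7 CPM, and mesothelial nuclei followed with 210.8 to 283.3. Lrp5 was highest in endothelial nuclei, with 129.4, 165.6, 142.4 and 126.9 CPM, which overlapped the 110.3 to 144.3 CPM of lymphatic nuclei. Both were also counted in every other main class.

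The alternative receptors had their highest pooled levels in fibroblasts or pericytes. Ror1 had the highest pooled level in fibroblasts, 700.4 to 1790 CPM, but the 852.2 to 1216 CPM of mesothelial nuclei overlapped it and lay above it in 2 libraries. A Ror1 UMI was found in 81.68% of fibroblast, 67.19% of pericyte and 66.87% of cardiomyocyte nuclei, and the lowest share was 13.49%, in endothelial nuclei. Ror2 had 147.6 to 214.3 CPM in fibroblasts and 142.7 to 187 in pericytes, with fibroblasts above in all 4 libraries although the ranges overlap. Ryk was highest in pericytes, at 150.3, 181.4, 194.9 and 133.9 CPM, and overlapped mesothelial nuclei at 115.3 to 155.8 CPM.

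Apart from Wif1, the described antagonists had their highest pooled level in fibroblasts. Sfrp1 had 28.29 to 45.64 CPM in fibroblasts, Frzb 20.67 to 41.66, Dkk3 13.44 to 56.49 and Sfrp4 3.18 to 7.624. Schwann nuclei overlapped these for Sfrp1 (17.86 to 57.72 CPM on 25 UMIs) and Sfrp4 (0 to 14.43 CPM on 3 UMIs). Cycling nuclei overlapped them for Frzb (6.518 to 22.7 CPM on 20 UMIs) and Dkk3 (0 to 33.29 CPM on 23 UMIs). In fibroblasts the pooled UMIs were 1172 for Sfrp1, 153 for Sfrp4, 934 for Frzb and 830 for Dkk3. The cycling cluster was named by cell division markers and not by lineage, and 10 markers of another list were enriched in it. Of its 260 nuclei, 137 came from Rbm20_homo. A Frzb UMI was found in 6.728% of fibroblast and 0.2038% of pericyte nuclei. Wif1, a secreted Wnt trap, had its highest pooled level in cardiomyocytes, at 3.231, 5.105, 1.731 and 7.537 CPM. Cycling nuclei overlapped these at 0 to 13.14 CPM, on 2 UMIs in all against 283 in cardiomyocytes. Cardiomyocytes were above cycling nuclei in 3 libraries. A Wif1 UMI was found in 2.11% of cardiomyocyte nuclei, against 0.1019% of pericyte nuclei.

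**Figure D1:**
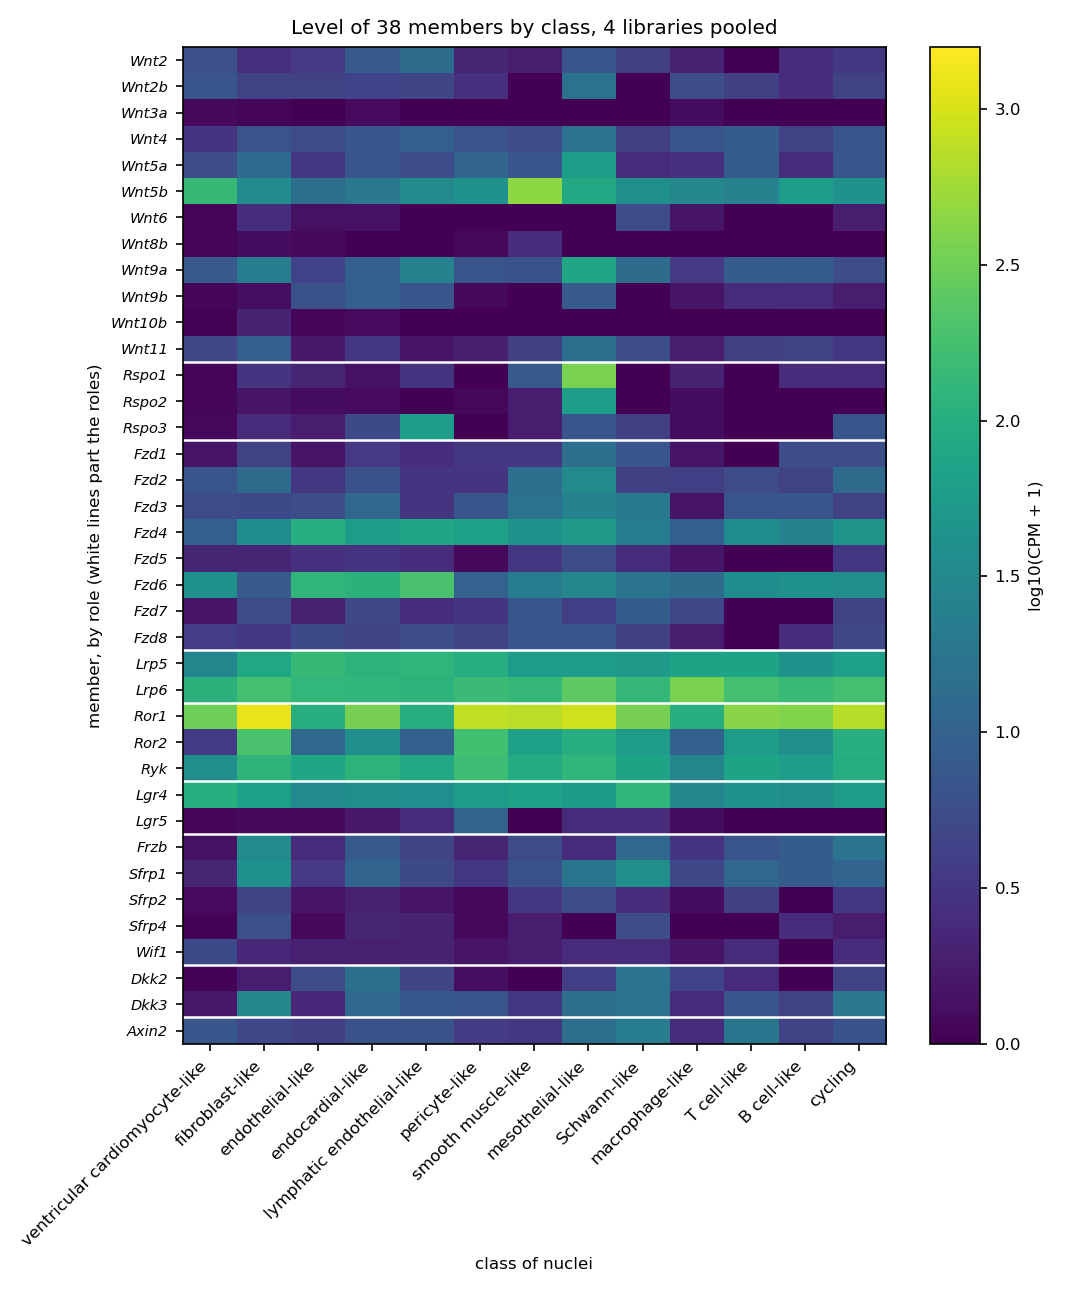
Heat map of the level of each of the 38 members (rows, by role, with white lines between roles) in each of the 13 classes (columns), as log10 of CPM + 1 with the 4 libraries pooled. Colours run from dark (low) to yellow (high), and Rspo1 is brightest in mesothelial nuclei, where 63.84% of nuclei had a UMI.

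The remaining 20 members had under 50 UMIs in the class where they were highest, and some of their counts sat in very few nuclei. Dkk2, a Dickkopf protein, had 21 fibroblast UMIs in WT from 7 nuclei, 3 in Rbm20_het and none in Rbm20_homo or the editing-corrected library. In those last libraries a floor of 3 counts would be 0.318 and 0.3398 CPM, and the upper limit of the Poisson interval lies above that floor. In endocardial nuclei Dkk2 had 5.633, 9.31, 24.27 and 11.28 CPM, and the 37 UMIs of Rbm20_homo came from 5 nuclei. Wnt9b had 2.253, 18.62, 5.248 and 6.154 CPM in endocardial nuclei, with 20 UMIs from 7 nuclei in Rbm20_het. The ligand Wnt5a and the receptor Fzd2 were highest in mesothelial nuclei, at 27.64 to 91.41 and 27.42 to 36.65 CPM.

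In fibroblasts, Rbm20_homo had higher levels than WT of the receptors Ror1, Fzd1 and Fzd2, of the antagonists Dkk3, Frzb and Sfrp2 and of the ligand Wnt2b, and lower levels of the ligand Wnt11, the antagonist Sfrp4 and the feedback gene Axin2. The largest differences were 4.20-fold higher Dkk3 and 16.4-fold lower Wnt11. Of the 38 members, 24 had the 50 UMIs in these libraries needed for a ratio. Past 1.5-fold were 7 higher and 3 lower, and 14 lay within that range. Over all 12407 genes with that count, 14.2% were higher and 8.77% lower by the same rule. The median log2 ratio was 0.36 over the members and 0.055 over all genes. In bulk sums of a class, more nuclei of one state and more RNA per nucleus cannot be told apart. Most fibroblasts of Rbm20_homo were in cluster 4 and most of the other libraries in cluster 1, and values within clusters are given further on.

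Among the receptors, Ror1 (chr4:100095791-100444765, + strand, GRCm38 as for all genes here) had 700.4 CPM for WT (Poisson interval 677.4 to 724.1), 1324 for Rbm20_het (1296 to 1352), 1790 for Rbm20_homo (1763 to 1817) and 988.5 for the editing-corrected library (967.9 to 1009). No interval overlaps another: WT was lowest, then the editing-corrected library, then Rbm20_het, and Rbm20_homo was highest. Against WT, Rbm20_homo was 2.56-fold higher (2.46 to 2.65). The share of fibroblast nuclei with a Ror1 UMI was 68.32, 86.69, 91.05 and 77.65%. After thinning every nucleus to 1000 UMIs, which leaves out 20 to 60 fibroblast nuclei per library, it was 45.05, 65.53, 73.27 and 56.81%, in the same order. Fzd2 (chr11:102604396-102608058, + strand) had 8.025, 8.699, 17.91 and 9.514 CPM, and its Rbm20_homo interval (15.31 to 20.83) lay above those of the other libraries. Fzd2 was 2.23-fold higher in Rbm20_homo than its WT level (1.57 to 3.24). Fzd1 was 2.88-fold higher (1.40 to 6.66), on 9 UMIs in WT and 49 in Rbm20_homo.

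Among the antagonists, Dkk3 (chr7:112116017-112159057, − strand), a divergent member of the Dickkopf family, had 13.44 CPM for WT (10.42 to 17.07), 15.75 for Rbm20_het (12.88 to 19.06), 56.49 for Rbm20_homo (51.8 to 61.5) and 14.16 for the editing-corrected library (11.78 to 16.87). Only Rbm20_homo stood apart, and the intervals of the other 3 libraries overlapped. Its ratio to WT was 4.20 (3.26 to 5.50). A Dkk3 UMI was found in 2.296, 2.992, 11.86 and 2.691% of fibroblast nuclei, against a pooled 0.2066% in endothelial nuclei. Thinned to 1000 UMIs, the Dkk3 shares were 1.112, 1.236, 4.439 and 1.452%. Frzb (chr2:80411970-80447625, − strand) had 20.67, 27.15, 41.66 and 29.11 CPM, 2.02-fold higher in Rbm20_homo than its WT level (1.62 to 2.53). Sfrp2, a secreted Frizzled-related protein, had 2.809, 2.55, 5.3 and 2.605 CPM on 14 to 50 UMIs, a 1.89-fold difference (1.03 to 3.70). Sfrp4 went the other way, with 7.624, 6.6, 3.18 and 4.644 CPM, 2.40-fold lower (1.45 to 4.01).

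Among the ligands, Wnt11 (chr7:98835112-98855195, + strand), known for signalling without β-catenin in heart development, had 19.06 CPM for WT (15.42 to 23.3), 10.65 for Rbm20_het (8.317 to 13.43), 1.166 for Rbm20_homo (0.582 to 2.086) and 7.248 for the editing-corrected library (5.582 to 9.256). WT was highest and Rbm20_homo lowest with no overlap, while Rbm20_het and the editing-corrected library overlapped. The UMIs behind these values were 95, 71, 11 and 64, and the Rbm20_homo level was 16.4-fold lower than that of WT (8.74 to 33.9). Wnt2b had 2.408, 2.4, 5.088 and 3.284 CPM, 2.11-fold higher in Rbm20_homo than its WT level (1.11 to 4.37). Axin2, the feedback gene, had 5.818, 4.65, 2.65 and 3.058 CPM on 25 to 31 UMIs per library, 2.20-fold lower (1.24 to 3.91). The members within 1.5-fold included the co-receptors Lrp5 (74.64, 72.59, 81.83 and 87.77 CPM) and Lrp6 (142.9, 177.4, 197.7 and 173.1), the receptors Ryk (120.4, 126.9, 118.7 and 119.4) and Lgr4 (62.6, 65.55, 65.93 and 61.27), and Ror2 (207.3, 205.9, 147.6 and 214.3). Ror2 was 1.40-fold lower in Rbm20_homo than its WT level (1.29 to 1.52), the opposite side from its relative Ror1.

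**Figure D2:**
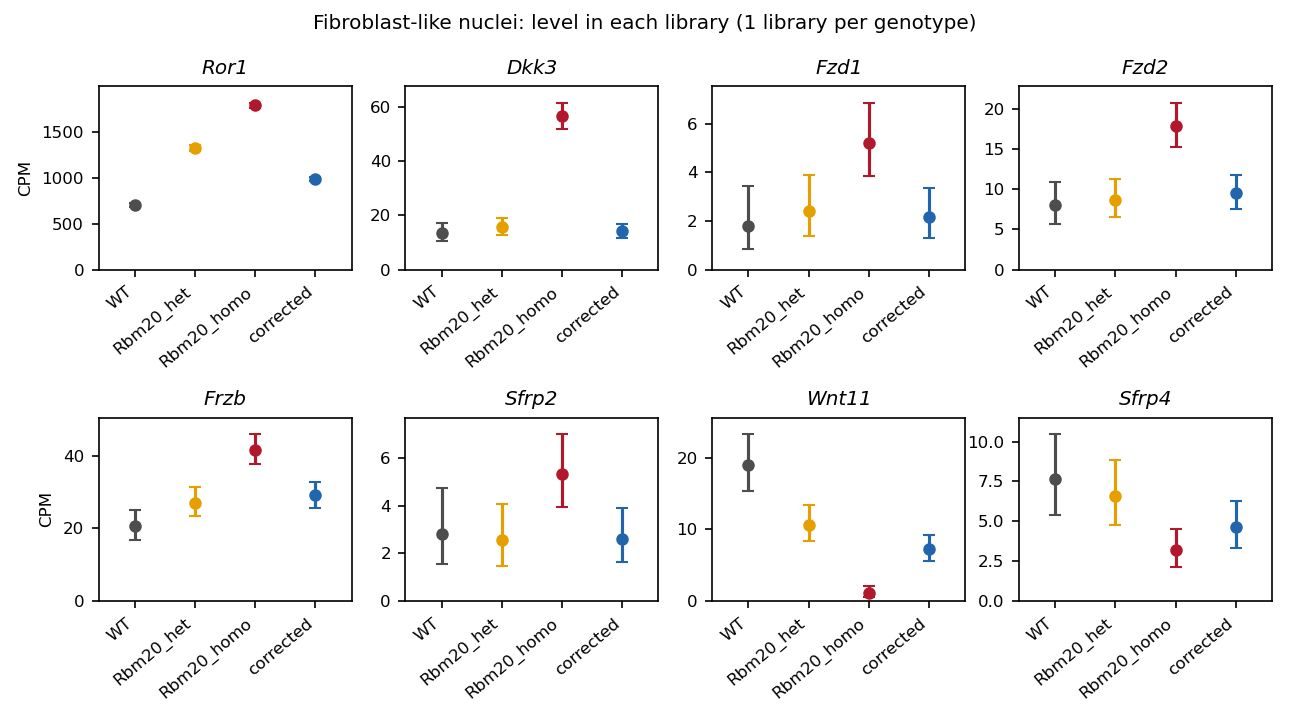
Level in fibroblast nuclei (CPM, vertical axis, with 95% Poisson bars) of 8 members in the 4 libraries, 1 library per genotype. Rbm20_homo is the highest library for Ror1, Dkk3, Fzd1, Fzd2, Frzb and Sfrp2 and the lowest for Wnt11 (1.166 CPM) and Sfrp4 (3.18 CPM).

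Markers of other cell types in the fibroblast nuclei were as follows. The cardiomyocyte marker list summed to 4567, 4000, 3702 and 6084 CPM. The atrial marker list summed to 20.26, 27.75, 558.7 and 35.11 CPM, with Sln and Bmp10 at 0 in all 4 libraries. The fibroblast list itself summed to 8695, 8794, 7786 and 7553 CPM. The part of the atrial-list signal in the member differences was not tested.

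Between Rbm20_het and WT fibroblasts, of 19 members with enough UMIs 1 was higher and 2 lower past 1.5-fold, against 3.91% and 3.96% of 11688 genes (7.87% in either direction). Ror1 was 1.89-fold higher (1.82 to 1.97) and Wnt11 was 1.79-fold lower (1.30 to 2.47). Within cluster 1 alone Ror1 was 1.79-fold higher (1.71 to 1.86), while Wnt11 was 1.44-fold lower with a ratio of 0.696 whose interval holds 1 (0.472 to 1.02). The third was Wnt4, at 6.019 CPM in WT and 3.75 in Rbm20_het, a 1.61-fold difference whose interval holds 1. The median log2 ratio of the 19 was 0.076.

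Next the editing-corrected library was compared with Rbm20_homo, the library of the uncorrected homozygous mutation, which is also the one compared with WT above. Of 24 fibroblast members, 1 was higher and 7 lower in the editing-corrected library past 1.5-fold, against 8.18% and 12.3% of 12934 genes. With trimmed-mean or median-of-ratios scaling the split was 4 higher and 6 lower. Wnt11 was 6.22-fold higher in the editing-corrected library (3.25 to 13.1). The antagonists Dkk3 and Sfrp2 were 3.99-fold (3.28 to 4.89) and 2.04-fold lower (1.22 to 3.49). The receptors Fzd1, Fzd4, Fzd2 and Ror1 were 2.41-fold (1.40 to 4.34), 1.96-fold (1.66 to 2.33), 1.88-fold (1.44 to 2.48) and 1.81-fold lower (1.76 to 1.86). Wnt2b was 1.55-fold lower with an interval that holds 1. Frzb, at 41.66 and 29.11 CPM, was 1.43-fold lower (1.22 to 1.68) and within 1.5-fold.

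Against WT, the editing-corrected library differed in some members. Of 21, 3 were higher and 3 lower, against 6.56% and 5.55% of 12110 genes. Sfrp1 (chr8:23411502-23449632, + strand) was 1.61-fold higher (1.33 to 1.97), from 28.29 CPM in WT to 45.64. Between them lay Rbm20_het at 38.85 and Rbm20_homo at 39.11 CPM. Fzd3 and Fzd6 were also past 1.5-fold higher, with intervals that hold 1. Wnt11 was 2.63-fold lower (1.90 to 3.67), Axin2 1.90-fold lower (1.09 to 3.34) and Sfrp4 1.64-fold lower (1.03 to 2.62). In thinned nuclei, on fewer UMIs and without an interval given, the Sfrp4 ratio lay on the other side (log2 0.16).

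**Figure D3:**
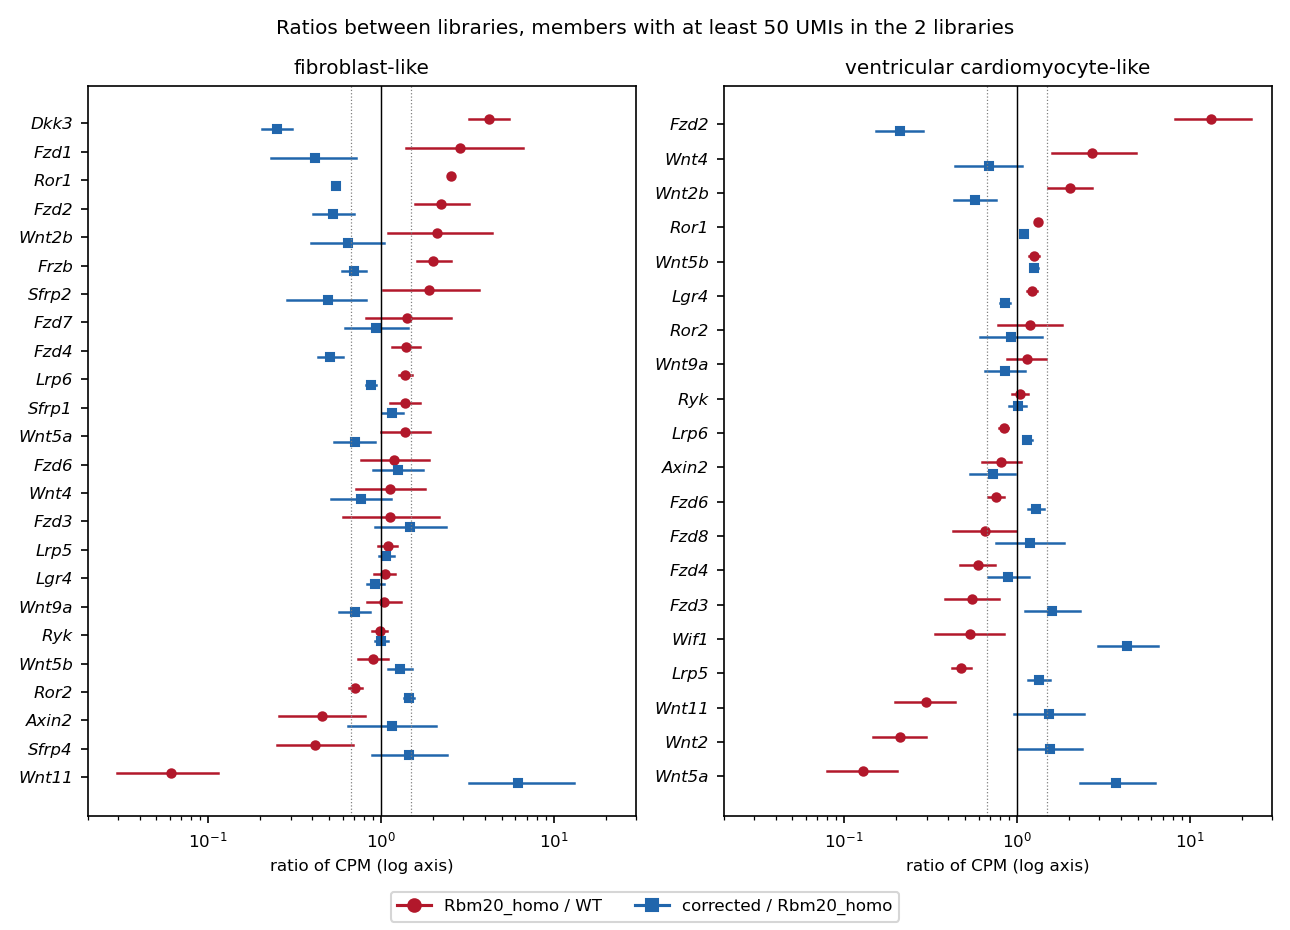
Ratio of levels (log axis) of Rbm20_homo to WT (red circles) and of the editing-corrected library to Rbm20_homo (blue squares) for the members with at least 50 UMIs in the fibroblast and cardiomyocyte panels, with 95% counting intervals and dotted lines at 1.5-fold either way. Both ratios use the Rbm20_homo library, so they are not independent of each other, and Wnt11 in fibroblasts and Fzd2 in cardiomyocytes lie farthest out.

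The fibroblast values mix clusters that the libraries fill unevenly, so members with at least 100 fibroblast UMIs were also read within clusters. Dkk3 was higher in cluster 4 than in cluster 1 in WT (74.37 and 13.18 CPM, ratio 5.64, interval 2.65 to 10.96), Rbm20_het (74.77 and 11, ratio 6.80, 4.47 to 10.3) and the editing-corrected library (46.52 and 13.05, ratio 3.56, 2.11 to 5.75). In Rbm20_homo the clusters were level, at 56.41 and 58.5 CPM. Frzb had 43.25 to 54.08 CPM in cluster 4 and 20.93 to 30.42 in cluster 1, with the interval of the ratio clear of 1 in WT alone. Ror1 did not follow this order: cluster 4 was below cluster 1 in WT (534.1 and 777.6 CPM), Rbm20_het (1261 and 1389) and the editing-corrected library (804.2 and 1041), and above it in Rbm20_homo (1839 and 1423). Ror2 was lower in cluster 4 in WT (87.89 and 219.9 CPM) and Rbm20_het (160 and 216.6), while the intervals held 1 in the editing-corrected library (190.5 and 220.8) and Rbm20_homo (147.5 and 157.9).

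Cluster 9, the adventitial-marker cluster, differed from cluster 1 in ligands and receptors. Wnt11 was higher in cluster 9 in WT (37.24 and 14.99 CPM, ratio 2.48, 1.59 to 3.83) and in the editing-corrected library (22.68 and 6.065, ratio 3.74, 2.04 to 6.57), with 17.08 and 10.43 CPM in Rbm20_het, where the interval holds 1. Wnt5b was higher there in WT (64.13 and 25.07 CPM), Rbm20_het (62.21 and 33.76) and the editing-corrected library (60.47 and 35.73). In Rbm20_homo cluster 9 held 42 nuclei and 3 Wnt5b UMIs. In all 4 libraries Lgr4 was higher in cluster 9 than in cluster 1, by 1.43- to 1.85-fold, while Lrp5, Ror1 and Ryk were lower, at ratios of 0.384 to 0.600, 0.536 to 0.757 and 0.610 to 0.865. Of these, the intervals of Lgr4, Lrp5 and Ryk held 1 in Rbm20_homo.

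Within cluster 1 alone, chosen for this reading after the data were seen, Rbm20_homo against WT gave ratios of 4.44 for Dkk3 (2.94 to 6.69), 1.83 for Ror1 (1.71 to 1.96), 3.77 for Sfrp2 (1.46 to 9.53, on 10 UMIs in Rbm20_homo and 12 in WT) and 0.078 for Wnt11 (0.00194 to 0.452, on 1 UMI in Rbm20_homo and 58 in WT). For the other 6 of the 10 called members the interval holds 1 in this cluster: Frzb had a ratio of 1.45 (0.896 to 2.29), Fzd2 of 1.25 (0.493 to 2.80), Fzd1 of 3.23 (0.809 to 11.8), Wnt2b of 1.81 (0.414 to 6.28), Axin2 of 0.566 (0.109 to 1.86) and Sfrp4 of 0.624 (0.160 to 1.78). The editing-corrected library against Rbm20_homo gave 0.223 for Dkk3 (0.157 to 0.320), 0.259 for Sfrp2 (0.119 to 0.610, on 23 and 10 UMIs) and 0.497 for Fzd4 (0.349 to 0.723). Ror1 was within 1.5-fold in that comparison, at 0.732 (0.689 to 0.778), and the intervals of Wnt11 (5.18, 0.885 to 209.2), Fzd1 (0.338, 0.117 to 1.19) and Fzd2 (1.0, 0.481 to 2.41) hold 1. Of the cluster 1 nuclei 302 came from Rbm20_homo. The minimum of 50 UMIs was not applied within this cluster. In cluster 4 of Rbm20_homo Sfrp2 had 4.74 CPM on 40 UMIs, against 11.7 CPM in cluster 1.

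**Figure D4:**
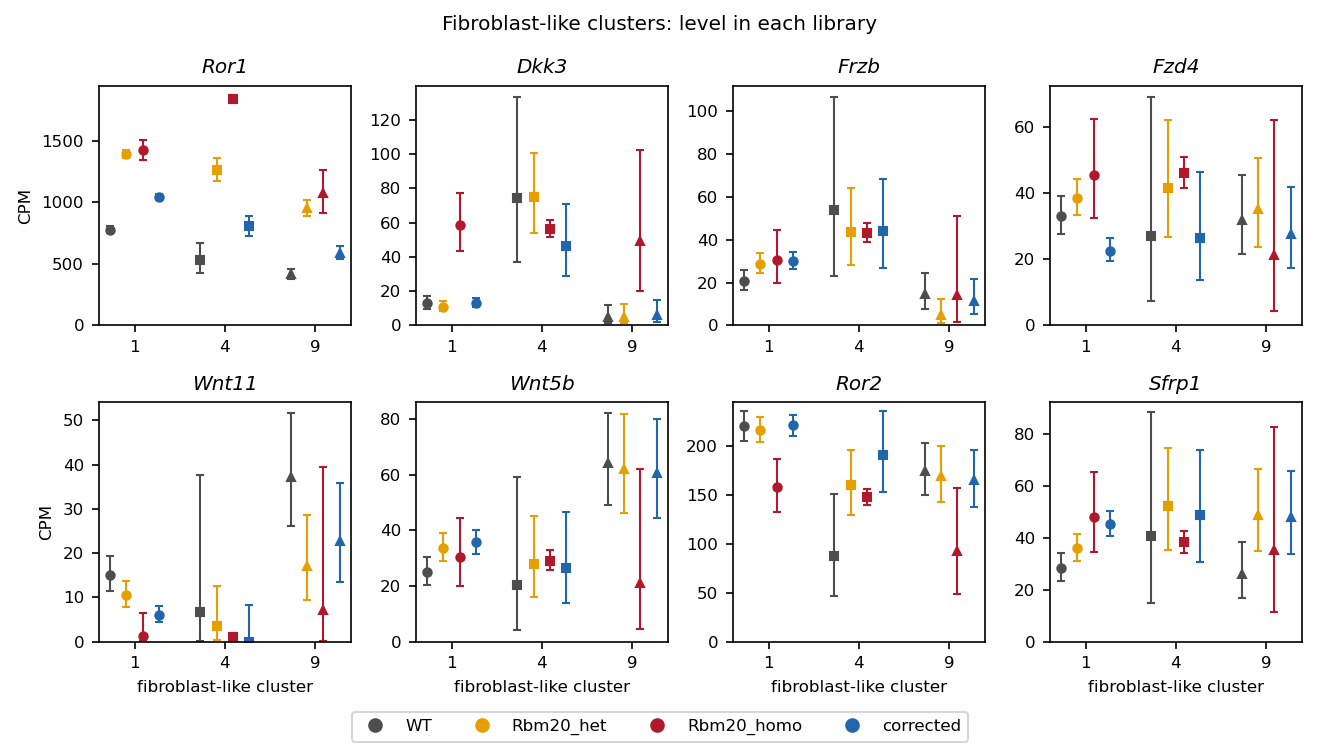
Level (CPM, with 95% Poisson bars) of 8 members in fibroblast clusters 1, 4 and 9 of each library. Dkk3 is higher in cluster 4 than in cluster 1 in all libraries but Rbm20_homo, where the levels are 56.41 and 58.5 CPM.

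In ventricular cardiomyocytes, Rbm20_homo had more Fzd2, Wnt4 and Wnt2b than WT, and less of the ligands Wnt2, Wnt5a and Wnt11, the co-receptor Lrp5, the antagonist Wif1 and the receptors Fzd3, Fzd4 and Fzd8. Fzd2 was 13.3-fold higher and Wnt2 4.77-fold lower. Of 20 members with enough UMIs, 3 were higher and 8 lower past 1.5-fold, against 12.0% and 22.2% of 13068 genes. With median-of-ratios scaling, or with Malat1 left out of the total, the split was 4 higher and 6 lower. Trimmed-mean scaling gave 3 and 6. The receptors that lost their call under each of these scalings were Fzd4 (log2 ratios of -0.57 to -0.58) and Fzd8 (-0.43 to -0.44). The median log2 ratio was -0.278 over the members and -0.187 over all genes. For all genes it was -0.014 with trimmed-mean scaling and -0.013 without Malat1. The libraries took their cardiomyocytes from different clusters, cluster 3 in Rbm20_homo and cluster 0 in the others.

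The receptor Fzd2 had 1.118 CPM for WT (0.6628 to 1.768), 2.972 for Rbm20_het (2.176 to 3.965), 14.86 for Rbm20_homo (13.21 to 16.67) and 3.13 for the editing-corrected library (2.315 to 4.138), from 18, 46, 292 and 49 UMIs. WT was lowest and Rbm20_homo highest, each clear of the other 3, while Rbm20_het and the editing-corrected library overlapped. The ratio of Rbm20_homo to WT was 13.3 (8.26 to 22.7). A Fzd2 UMI was found in 0.6114, 1.829, 8.724 and 1.591% of cardiomyocyte nuclei, and in 0.102, 0.2909, 1.393 and 0.423% after thinning to 1000 UMIs. The pooled share in endothelial nuclei was 0.3814%. Cluster 3 was above cluster 0 for Fzd2 in Rbm20_het (11.77 and 2.407 CPM, ratio 4.89, 2.24 to 9.85) and in the editing-corrected library (8.89 and 2.536, ratio 3.51, 1.71 to 6.77). In Rbm20_homo cluster 0 had 1 Fzd2 UMI, a ratio of 5.0 (0.891 to 198).

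The fibroblast marker list was also higher in these cardiomyocytes, at 176.6, 235, 384.9 and 258.5 CPM. Of its 12 markers, 8 were past 1.5-fold higher and 1 lower in Rbm20_homo than in WT, counted without a UMI minimum. The sums of the list were 2.03, 2.67, 4.94 and 3.42% of the same list's level in fibroblasts. Fzd2 in cardiomyocytes was 13.9, 34.2, 83 and 32.9% of its fibroblast level. The atrial list summed to 100.5, 109.5, 974 and 94.15 CPM, the endothelial list to 1164, 1178, 918.1 and 1207 and the pericyte list to 368.1, 209, 108.3 and 316.8. The part of these lists in the member differences was not tested.

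The ligands of cardiomyocytes differed in both directions. Wnt2 (chr6:17988940-18030585, − strand) had 10.19 CPM for WT (8.69 to 11.87), 5.299 for Rbm20_het, 2.138 for Rbm20_homo (1.541 to 2.89) and 3.321 for the editing-corrected library (2.48 to 4.355). Wnt11 had 6.151, 5.04, 1.833 and 2.81 CPM, 3.36-fold lower in Rbm20_homo than its WT level (2.27 to 5.06), and WT was again the highest library. Wnt5a had 9.072, 5.234, 1.171 and 4.407 CPM, 7.75-fold lower (4.97 to 12.6), but its level here was under 0.2 of that in another class in both libraries. Mesothelial nuclei, the highest class for Wnt5a, had 27.64 to 91.41 CPM on 41 UMIs over the 4 libraries, and fibroblasts had 10.31 to 14.63 CPM. Wnt2b had 4.225, 5.816, 8.552 and 4.918 CPM, 2.02-fold higher (1.52 to 2.72), and Wnt4, a ligand with both canonical and other actions, had 1.118, 1.615, 3.054 and 2.108 CPM, 2.73-fold higher (1.59 to 4.92). With nuclei thinned to 1000 UMIs the Wnt2b difference was within 1.5-fold (log2 ratio 0.41). Wnt5b (chr6:119432531-119544347, − strand) had 100.4, 175.2, 126.3 and 158.2 CPM. WT was lowest for it, Rbm20_homo was within 1.5-fold of WT (ratio 1.26, 1.18 to 1.34), and cluster 3 was above cluster 0 in every library, by 1.5- to 2.05-fold.

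Of the receptors and co-receptors, Lrp5 (chr19:3584828-3686564, − strand) had 39.33 CPM for WT (36.33 to 42.52), 33.67 for Rbm20_het (30.84 to 36.68), 18.78 for Rbm20_homo (16.92 to 20.8) and 25.29 for the editing-corrected library (22.86 to 27.91). It was 2.09-fold lower in Rbm20_homo than its WT level (1.84 to 2.39). Its partner Lrp6 had 120, 117.3, 100.4 and 115.5 CPM, a ratio of 0.837 whose log2 of -0.26 is near the median of all genes. Fzd3 had 4.971, 6.849, 2.749 and 4.407 CPM, 1.81-fold lower (1.27 to 2.60), and Fzd8 had 3.355, 3.425, 2.189 and 2.619, 1.53-fold lower (1.01 to 2.34). For Fzd3 the thinned counts, which hold fewer UMIs and are given without an interval, gave a ratio on the other side (log2 0.68). Fzd4 was 1.69-fold lower (1.35 to 2.13) at under 0.2 of its endothelial level. Ror1 had 243.4, 332.5, 323.8 and 356.5 CPM, with WT lowest and Rbm20_homo 1.33-fold above it (1.28 to 1.38).

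Wif1 (chr10:121033960-121100650, + strand) had 3.231 CPM for WT (2.413 to 4.237), 5.105 for Rbm20_het (4.042 to 6.362), 1.731 for Rbm20_homo (1.199 to 2.419) and 7.537 for the editing-corrected library (6.238 to 9.026). Rbm20_homo was lowest and the editing-corrected library highest. The difference of Rbm20_homo from WT was 1.87-fold (1.19 to 2.97), on 34 and 52 UMIs.

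**Figure D5:**
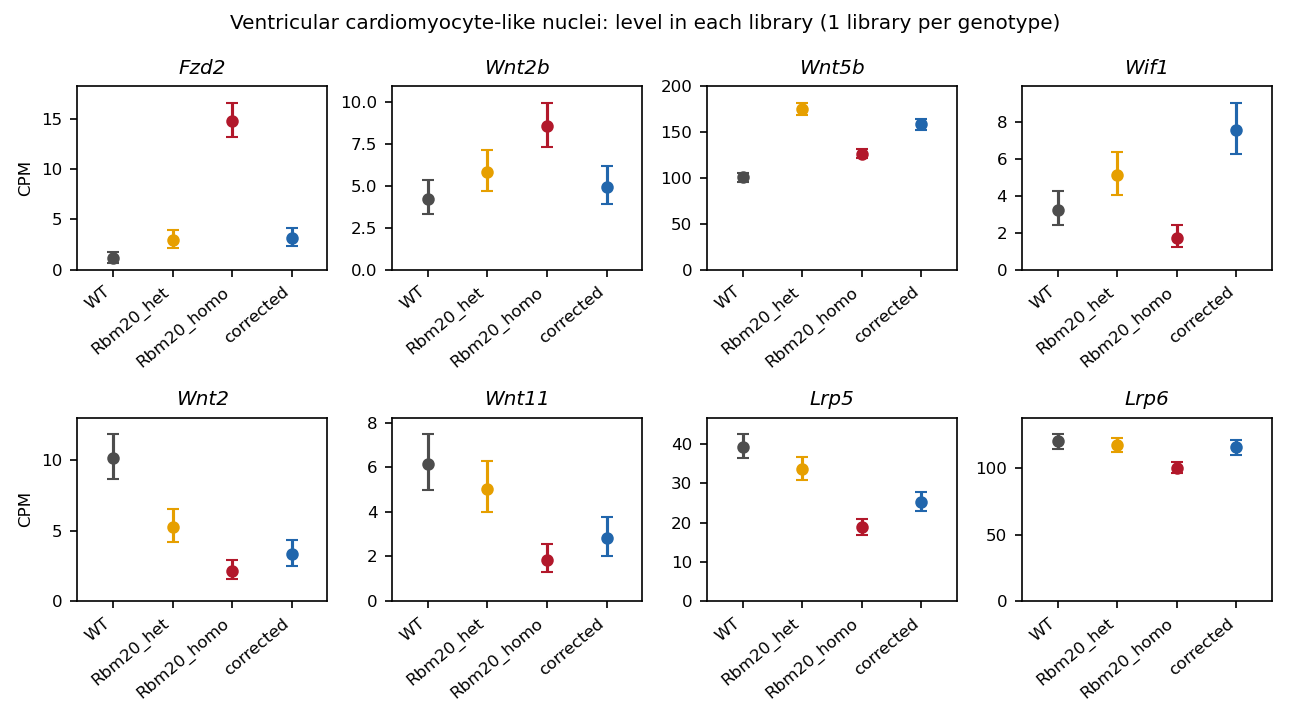
Level in cardiomyocyte nuclei (CPM, with 95% Poisson bars) of 8 members in the 4 libraries, 1 library per genotype. Fzd2 stands out in Rbm20_homo at 14.86 CPM, and Wnt2 is highest in WT at 10.19 CPM.

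In Rbm20_het cardiomyocytes, 3 of 19 members were higher and 3 lower than in WT past 1.5-fold, against 5.61% and 7.51% of 12748 genes. With trimmed-mean or median-of-ratios scaling the split was 3 higher and 2 lower, with Fzd4 within 1.5-fold (log2 ratios of -0.54 and -0.55). Fzd2 was 2.66-fold higher (1.51 to 4.87), Wnt5b 1.75-fold (1.64 to 1.86) and Wif1 1.58-fold (1.1 to 2.29). Wnt2 was 1.92-fold, Wnt5a 1.73-fold and Fzd4 1.52-fold lower, the latter 2 at under 0.2 of their level in another class. In thinned nuclei Wif1 and Fzd4 were within 1.5-fold (log2 ratios 0.08 and -0.17).

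In the editing-corrected library, 5 of 21 cardiomyocyte members were higher and 2 lower than in Rbm20_homo, against 15.5% and 10.1% of 12977 genes, and the median log2 ratio of all genes was 0.114. The split was 2 higher and 3 lower with trimmed-mean or median-of-ratios scaling, and 2 higher and 4 lower without Malat1. Wif1 was 4.36-fold higher (2.95 to 6.58), Wnt5a 3.76-fold (2.32 to 6.32), Fzd3 1.6-fold and Wnt2 1.55-fold, and Wnt11 was 1.53-fold higher with an interval that holds 1. Fzd3 and Wnt2 were within 1.5-fold under these scalings, at log2 ratios of 0.52 to 0.58 and 0.48 to 0.53. Fzd2 was 4.75-fold lower (3.5 to 6.57) and Wnt2b 1.74-fold lower (1.32 to 2.31).

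Against WT, the corrected cardiomyocytes had 4 of 20 members higher and 6 lower, against 6.16% and 8.97% of 12786 genes. With trimmed-mean or median-of-ratios scaling the split was 5 higher and 5 lower, with Lrp5 within 1.5-fold (log2 ratio -0.57). Fzd2 was 2.80-fold, Wif1 2.33-fold, Wnt4 1.89-fold and Wnt5b 1.58-fold higher. Wnt2 was 3.07-fold, Wnt11 2.19-fold, Wnt5a 2.06-fold, Fzd4 1.90-fold, Axin2 1.70-fold and Lrp5 1.56-fold lower. Fzd4 in these cardiomyocytes was 14% of its endothelial level in WT and 7.45% in the editing-corrected library.

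In endothelial nuclei, 2 of 8 members were higher and 0 lower in Rbm20_homo than in WT, against 9.91% and 9.3% of 9244 genes. Fzd4 (chr7:89404355-89413134, + strand), at 83.19, 116.6, 146.9 and 82.36 CPM, was 1.77-fold higher (1.47 to 2.13). The editing-corrected library and WT were level for Fzd4, with Rbm20_het between them and Rbm20_homo. A Fzd4 UMI was found in 12.18, 18.57, 20.87 and 11.81% of endothelial nuclei, and in 8.251, 11.26, 13.06 and 7.125% after thinning. Ror1 had 46.63, 113.9, 120.3 and 114.2 CPM, with WT alone low and Rbm20_homo 2.58-fold above it (2.05 to 3.27). Those Ror1 levels were 6.66, 8.6, 6.72 and 11.6% of the fibroblast level. The fibroblast marker list in the same nuclei was 6.88, 10.1, 20.9 and 10.8% of its fibroblast level. Of its 12 markers, 9 were past 1.5-fold higher and 2 lower in Rbm20_homo than in WT, counted without a UMI minimum. The part of this list in the Ror1 difference was not tested.

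In Rbm20_het endothelial nuclei 1 of 8 members was higher than in WT and 0 lower, against 4.44% and 6.11% of genes, and it was Ror1 at 2.44-fold. In the editing-corrected library 0 of 9 were higher and 1 lower than in Rbm20_homo, against 7.97% and 9.93%, and it was Fzd4, 1.78-fold lower (1.52 to 2.09). With trimmed-mean or median-of-ratios scaling that split was 1 and 1. Against WT, 2 of 9 were higher and 0 lower in the editing-corrected library, against 5.18% and 6.12%. These were Ror1 at 2.45-fold and Ror2 at 1.52-fold, the latter with an interval that holds 1.

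In pericytes, 8 members had enough UMIs. Wnt5b, at 47.19, 40.11, 29.14 and 42.97 CPM, was 1.62-fold lower in Rbm20_homo than its WT level (1.01 to 2.64), the only member past 1.5-fold, against 8.51% of genes higher and 11.2% lower (19.7% in either direction). Its pericyte level was under 0.2 of that in another class in both libraries. Fzd4, at 67.29, 67.06, 88.43 and 56.99 CPM, was 1.55-fold lower in the editing-corrected library than in Rbm20_homo, with 0 of 8 members higher, against 9.58% and 7.93% of genes. In thinned nuclei that Fzd4 difference was within 1.5-fold (log2 ratio -0.15). Rbm20_het and the editing-corrected library each had 0 members past 1.5-fold from WT, against 5.41% and 5.63% of genes for the first and 6.09% and 6.19% for the other. With Malat1 left out of the total, 1 of 8 members was lower in Rbm20_het than in WT, and 2 of 8 were lower in the editing-corrected library than in Rbm20_homo.

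In smooth muscle, the class where Wnt5b was highest, Rbm20_homo was 1.86-fold below WT for it (1.41 to 2.43), on 118 and 107 UMIs. The editing-corrected library was 1.32-fold above Rbm20_homo (1.03 to 1.68). In cardiomyocytes, Wnt5b was on the other side of WT in Rbm20_homo, as given above. The difference between the classes was not tested.

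The other genes of the pathway, on 6 lists by role, were read in the same way for Rbm20_homo against WT. A gene on more than 1 list counts under each, so the list counts are not independent. Znrf3, Rnf43, Lgr6 and Tnfrsf19 are on both the receptor turnover and the reported target lists. Tcf7, Lef1 and Tcf7l2 are on both the intracellular and the reported target lists. In fibroblasts, 7 of 10 genes for Wnt secretion and matrix carriers could be read, with 1 higher and 1 lower. Of further extracellular inhibitors 8 of 12 could be read (3 higher, 1 lower), of receptor turnover genes 6 of 8 (0 and 1), of intracellular pathway genes 32 of 36 (0 and 4), of planar polarity and calcium genes 19 of 22 (0 and 1) and of reported target genes 11 of 19 (3 and 1). The background shares given for this comparison were 14.2% and 8.77%. Nkd2, an inhibitor of Dishevelled, had 7.424, 6.15, 22.26 and 8.947 CPM, 3.0-fold higher in Rbm20_homo than its WT level (2.11 to 4.38). Sox9, a transcription factor reported as a target, had 21.87, 17.7, 46.11 and 26.73, and Sulf1, a heparan sulfatase, 614.8, 856.3, 1055 and 671.8 CPM. For these, Rbm20_homo was the highest library. It was the lowest for Gpc3, a glypican that binds Wnts (43.54, 35.7, 18.87 and 40.55 CPM), and for Daam1, a formin of the polarity branch (364.8, 311.1, 189 and 367.2 CPM).

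In cardiomyocytes the same lists gave 2 of 9 secretion genes higher and 0 lower, 1 of 4 inhibitors higher and 0 lower, and 0 of 6 receptor turnover genes higher and 4 lower. Of 32 intracellular genes 2 were higher and 9 lower, of 20 polarity genes 2 and 5, and of 12 reported targets 6 and 4, with a background of 12.0% and 22.2%. The receptor turnover list had a median log2 ratio of -1.379. Tnfrsf19, a receptor of the TNF family reported as a Wnt target, had 13.05, 7.366, 0.56 and 3.96 CPM, 23.3-fold lower in Rbm20_homo than in WT. Tcf7l2, the TCF factor, had 344.3, 245.8, 151.9 and 268.9 CPM, 2.27-fold lower. Higher were Ccn4, a secreted protein also called Wisp1 (3.355, 15.64, 16.65 and 10.92 CPM), Daam2 (8.077, 21.19, 33.5 and 13.67) and Nkd2 (1.678, 2.843, 6.261 and 3.194). WT was the lowest library for each of these 3, by 4.96-, 4.15- and 3.73-fold against Rbm20_homo.

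In the vascular classes the lists were read against 9.91% of all genes higher and 9.3% lower in endothelial nuclei, and 8.51% and 11.2% in pericytes. In endothelial nuclei 4 of 6 secretion genes were higher and 0 lower, among them the glypican Gpc6 at 1.86-fold (122.5 CPM in WT and 228.3 in Rbm20_homo) and Sulf1 at 1.88-fold (121.6 and 228.3). In fibroblasts of the same libraries Gpc6 had 3901 and 4001 CPM, and the part of the fibroblast markers given above was not tested. Of 2 inhibitors and of 2 receptor turnover genes 1 each was higher and 0 lower, of 29 intracellular genes 1 was higher and 2 lower, and of 16 polarity genes and 4 reported targets 0 passed 1.5-fold. In pericytes Sulf1 had 72.53, 197, 309.5 and 102.2 CPM, 4.27-fold higher in Rbm20_homo than in WT, the only higher gene of 6 on the secretion list. Both receptor turnover genes that could be read there, Znrf3 at 1.59-fold and Ptk7 at 1.76-fold, were lower. Of 14 polarity genes 2 were higher and 2 lower, Daam1 among the lower ones (728.8 CPM in WT and 420 in Rbm20_homo). Of 21 intracellular genes 1 was higher and 1 lower, of 3 reported targets 1 and 1, and the 1 inhibitor that could be read was within 1.5-fold.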

How the data were processed

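Single-nucleus RNA-seq libraries of mouse hearts were compared, 1 library per genotype, each from 3 pooled hearts. The deposited values are raw UMI counts per gene and barcode from Cell Ranger 4.0.0, per the file headers, while Cell Ranger 6.1.1, Seurat 4 and mm10 (GRCm38) are listed per the submitters' processing notes. Whether intronic reads were counted, how strand was used and how barcodes were filtered is not given in the sources used here, and each of these sets how much of a long gene such as Ror1 is counted.

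The members and gene lists were chosen with earlier results of these data known. Barcodes with under 300 genes or over 5% mitochondrial UMIs were dropped, and the highest Scrublet scores (0.8% per 1000 barcodes) were removed as likely doublets: 713, 749, 1069 and 1813 barcodes, in the order WT, Rbm20_het, Rbm20_homo, Rbm20_homo_corrected. Clustering (scanpy 1.11.5, leidenalg 0.10.2) used 2000 variable genes without the members, 30 components, 20 neighbours and resolution 0.8. A cluster was named from at least 4 enriched markers (2-fold over the rest, in 5% of nuclei) and 100 nuclei. The naming thresholds were set after the data were seen. They left 10 of 27 clusters unnamed, 7 of them mixed, which held 11.05, 11.62, 10.39 and 9.967% of the nuclei. A difference from the study's own cell types may come from these rebuilt names.

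UMIs were summed per class and library and scaled to CPM over the non-mitochondrial UMIs of that class in that library. Intervals are exact (Poisson for levels, conditional binomial for ratios, Clopper-Pearson for shares), computed with scipy 1.17.1, and cover counting error only. Where a level is 0, a floor of 3 counts may be given, which is not the limit of the interval. A ratio of a class needed 50 UMIs in its 2 libraries, a minimum not applied within clusters, and a difference was called past 1.5-fold. A member was named as described by at least 50 UMIs in its leading class, and named in a comparison when past 1.5-fold with an interval that excludes 1. Members past 1.5-fold whose interval holds 1 are named as such. Up to 3 genes per pathway list and class were named by the size of their Rbm20_homo to WT ratio, from at least 100 UMIs. With 1 library per genotype no p-value was computed. The interval code was tested on simulated data. Alternatives were trimmed-mean scaling (edgeR 4.0.16), median-of-ratios scaling, totals without Malat1, thinning to 1000 UMIs, other UMI minimums and folds, no doublet removal, resolution 1.6 and member genes among the variable genes. A further alternative left out member and class pairs at under 0.2 of the level in another class in both libraries. Fibroblast cluster 1 alone was added after seeing the data.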

Additional observations from a re-analysis of the deposited data

Results flagged for a closer look

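Fzd4 differed between Rbm20_homo and WT in opposite directions in 2 classes. The log2 ratio was 0.82 in endothelial nuclei, where the levels were 146.9 and 83.19 CPM, and -0.76 in ventricular cardiomyocytes, where they were 6.872 and 11.62 CPM. The difference between the classes was not tested, because there is 1 library per genotype. Cardiomyocyte Fzd4 was 14, 6.54, 4.68 and 7.45% of its endothelial level in WT, Rbm20_het, Rbm20_homo and Rbm20_homo_corrected. The endothelial marker list in cardiomyocytes was 8.55, 8.9, 6.87 and 9.66% of its own endothelial level, and its part in the cardiomyocyte difference was not tested. With trimmed-mean scaling the cardiomyocyte log2 ratio was -0.58, within 1.5-fold.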

How the results depend on the processing

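No paired analysis was possible because each genotype has 1 library and no comparison rests on replicates. For the same reason no library could be left out. Precision is limited by depth: members with fewer than 50 UMIs in a pair of libraries have no ratio here, and many described shares are a few percent of nuclei. Over fibroblasts, cardiomyocytes, endothelial nuclei and pericytes, 24 of 60 member and class pairs were past 1.5-fold for Rbm20_homo against WT, 10 of 54 for Rbm20_het against WT, 17 of 62 for the editing-corrected library against Rbm20_homo and 18 of 58 for it against WT. Over all genes the shares past 1.5-fold in the same 4 classes were 23.0, 34.1, 19.2 and 19.7%, then 7.87, 13.1, 10.6 and 11.0%, then 20.5, 25.6, 17.9 and 17.5%, then 12.1, 15.1, 11.3 and 12.3%; shares of all genes were not computed for the other settings. In the order of the comparisons, thinning to 1000 UMIs gave 10, 5, 9 and 9, a minimum of 200 UMIs gave 11, 6, 8 and 7, and no minimum gave 87, 62, 77 and 69. A minimum of 20 UMIs gave 18 for Rbm20_het against WT and 33 for the editing-corrected library against Rbm20_homo. A fold of 2 gave 2 for Rbm20_het against WT, and 7 for each comparison of the editing-corrected library. Thinning leaves fewer UMIs, so fewer pairs could be read. The split of the editing-corrected library against Rbm20_homo, 6 higher and 11 lower, was 3 and 14 without Malat1. With pairs at under 0.2 of the level in another class left out, 4 of the counts by class and comparison moved and 12 were the same.

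The 63 named ratios were recomputed under 7 other settings. Thinning reversed 3 of them, with log2 ratios of 0.16 for Sfrp4 in fibroblasts of the editing-corrected library against WT, and of 0.68 and -0.060 for Fzd3 in cardiomyocytes of Rbm20_homo against WT and of the editing-corrected library against Rbm20_homo, and the cause was not tested. Thinned ratios rest on fewer UMIs and are given without intervals. Another 11 ratios kept their direction under thinning but moved beyond their main counting interval, as did 2 with median-of-ratios scaling, 1 with trimmed-mean scaling and 1 without doublet removal. In fibroblast cluster 1 alone, added after seeing the data, Fzd2 in the editing-corrected library against Rbm20_homo had a log2 ratio of 0.000298, and 7 of 23 ratios moved beyond their main interval with the same direction. The leading class of all 18 described members was the same without doublet removal, at resolution 1.6 and with the member genes among the variable genes.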
